A study of Homo sapiens with 6 samples.

Results

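The genes described here are 9 genes of MHC class I antigen presentation, HLA-B, HLA-C, HLA-E, HLA-F, B2M, TAP1, TAP2, TAPBP and NLRC5, out of 20007 protein-coding genes. For each of them, peaks of H3K27ac, the acetylation of lysine 27 on histone H3 that marks active promoters and enhancers, were counted and measured in a promoter window and in a gene window. The promoter window took in 2500 bases on either side of the canonical start site, and the gene window covered the gene body and 10 kb to each side. Only peaks on chromosomes 1 to 22, X and Y were used, unless stated otherwise.

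The mark was profiled by CUT&Tag, in which an antibody guides a transposase to cut and tag the DNA near the modified histone. The cells were 2 acute myeloid leukemia (AML) lines, Kasumi-1, which carries the RUNX1::RUNX1T1 fusion, and MV4-11, which carries a KMT2A fusion. Cells were infected with lentivirus and selected with puromycin, and carried either a control hairpin (NC, called untreated in the labels) or a short hairpin RNA against ANP32B (sh-ANP32B), a nuclear protein of the ANP32 family; the hairpin used for CUT&Tag was not given in the sources used here. Each of the 4 groups had 1 H3K27ac library, and the 2 IgG libraries among the 6 samples, 1 per line, were not analysed here. The study's methods describe merging of replicates before peak calling, and whether this holds for the lists used here is not clear. With 1 library per group, differences have no replicate check and all values describe these libraries. Peak heights and read depth were not in the lists, and a value below is the number of bases under peaks.

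In MHC class I presentation, peptides made by the proteasome in the cytosol are carried into the endoplasmic reticulum by the TAP transporter. There they are loaded, with the help of tapasin, onto a heavy chain paired with the light chain beta-2 microglobulin, and the complex travels to the cell surface, where CD8 T cells and natural killer cells read it. Transcription of these genes is raised by interferon through interferon-stimulated response elements (ISRE), by NF-kappaB through kappaB sites, and by NLRC5 through the conserved SXY module, to which RFX, CREB/ATF and NF-Y proteins bind. Leukemic cells that present less through MHC class I can be less visible to T cells.

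The 4 HLA genes all lie in the major histocompatibility complex (MHC) on chromosome 6. In hg38, HLA-B (ENSG00000234745.14) spans 31353872 to 31367067 on the minus strand and starts at 31357179, and HLA-C (ENSG00000204525.18) spans 31268749 to 31272130 on the minus strand and starts at 31272092. HLA-E (ENSG00000204592.9) spans 30489509 to 30494194 and HLA-F (ENSG00000204642.14) spans 29722775 to 29738528, both on the plus strand. TAP1 (ENSG00000168394.13, 32845209 to 32853816), TAP2 (ENSG00000204267.19, 32821833 to 32838739) and TAPBP (ENSG00000231925.14, 33299694 to 33314284) lie further along chromosome 6 on the minus strand. The remaining members are elsewhere: B2M (ENSG00000166710.23) spans 44711358 to 44718851 on chromosome 15 and NLRC5 (ENSG00000140853.17) spans 56989485 to 57083531 on chromosome 16, both on the plus strand.

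Promoter sequences from RefSeq (build GRCh38.p14) were found for 7 of the 9 members, from 250 bases before to 50 bases after the start; HLA-E and NLRC5 had no entry. All 7 are printed, since each held an ISRE-type match and the peaks described below are placed against them: B2M and TAPBP had a peak in every library, TAP2 in 1, and TAP1, HLA-B, HLA-C and HLA-F in none on the main chromosomes. Of TAP1, the promoter of the canonical start is shown. Capitals mark matches to an ISRE-type motif (GAANNGAAA or GAAANNGAAA) or to the kappaB motif on either strand. Positions are relative to the start site, negative upstream.
B2M (chr15:44711267-44711566, plus strand): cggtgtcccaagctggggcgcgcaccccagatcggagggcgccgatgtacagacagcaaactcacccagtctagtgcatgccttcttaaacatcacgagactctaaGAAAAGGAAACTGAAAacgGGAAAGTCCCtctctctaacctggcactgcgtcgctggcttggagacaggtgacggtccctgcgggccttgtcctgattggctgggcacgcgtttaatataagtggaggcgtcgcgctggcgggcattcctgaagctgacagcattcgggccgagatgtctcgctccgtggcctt
TAPBP (chr6:33314029-33314328, minus strand): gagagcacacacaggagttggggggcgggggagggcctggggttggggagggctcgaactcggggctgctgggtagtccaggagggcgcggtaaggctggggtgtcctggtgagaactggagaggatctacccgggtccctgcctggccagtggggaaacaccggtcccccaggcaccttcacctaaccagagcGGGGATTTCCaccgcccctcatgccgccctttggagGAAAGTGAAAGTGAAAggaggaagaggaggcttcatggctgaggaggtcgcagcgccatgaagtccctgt
TAP1 (chr6:32853655-32853954, minus strand): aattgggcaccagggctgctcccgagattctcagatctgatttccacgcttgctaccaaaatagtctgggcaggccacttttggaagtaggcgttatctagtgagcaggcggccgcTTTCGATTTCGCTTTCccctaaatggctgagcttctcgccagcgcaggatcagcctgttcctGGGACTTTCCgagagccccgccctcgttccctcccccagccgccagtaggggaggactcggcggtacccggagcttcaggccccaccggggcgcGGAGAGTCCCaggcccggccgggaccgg
TAP2 (chr6:32838690-32838989, minus strand): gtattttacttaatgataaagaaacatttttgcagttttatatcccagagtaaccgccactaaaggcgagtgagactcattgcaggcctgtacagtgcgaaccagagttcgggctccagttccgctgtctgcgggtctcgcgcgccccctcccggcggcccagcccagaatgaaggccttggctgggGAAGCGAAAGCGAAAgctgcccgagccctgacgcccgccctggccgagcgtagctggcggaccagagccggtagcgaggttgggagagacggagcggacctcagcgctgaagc
HLA-B (chr6:31357130-31357429, minus strand): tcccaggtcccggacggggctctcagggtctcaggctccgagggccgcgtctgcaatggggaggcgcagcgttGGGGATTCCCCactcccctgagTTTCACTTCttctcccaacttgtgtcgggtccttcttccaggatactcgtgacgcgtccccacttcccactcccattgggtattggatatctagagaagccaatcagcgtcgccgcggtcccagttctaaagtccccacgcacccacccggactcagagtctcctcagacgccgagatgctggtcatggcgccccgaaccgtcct
HLA-C (chr6:31272043-31272342, minus strand): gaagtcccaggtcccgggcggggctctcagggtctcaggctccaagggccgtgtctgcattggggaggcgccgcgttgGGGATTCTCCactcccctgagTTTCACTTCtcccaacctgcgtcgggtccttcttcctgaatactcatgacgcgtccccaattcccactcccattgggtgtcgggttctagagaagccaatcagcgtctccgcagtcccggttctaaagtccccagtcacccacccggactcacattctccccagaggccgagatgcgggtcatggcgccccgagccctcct
HLA-F (chr6:29723184-29723483, plus strand): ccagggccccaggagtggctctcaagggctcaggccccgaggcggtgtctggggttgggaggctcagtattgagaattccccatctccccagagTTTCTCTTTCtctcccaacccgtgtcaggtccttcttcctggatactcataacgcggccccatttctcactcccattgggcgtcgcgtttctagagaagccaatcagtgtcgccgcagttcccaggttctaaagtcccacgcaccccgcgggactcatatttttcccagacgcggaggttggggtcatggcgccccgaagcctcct

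Of all 35116 promoters of the same length, 7.7% held GAANNGAAA and 3.6% held GAAANNGAAA, 2 motifs that can overlap each other. In B2M, TAP1 and TAPBP, 2 overlapping copies of GAAANNGAAA lay at -144 to -129, -134 to -119 and -20 to -5. HLA-B and HLA-C had the 9-base form on the minus strand, at -155 to -147 and -151 to -143, and HLA-F had the 10-base form at -156 to -147. TAP2 held both forms, at -63 to -55 and -58 to -49. The kappaB motif, present in 5.9% of promoters, was found in B2M, TAP1, TAPBP, HLA-B and HLA-C. Of the letters related to the SXY module, TGACG (24.6% of promoters) was found in B2M, TAP2, HLA-B and HLA-C, and CCAAT (34.6%) in HLA-B, HLA-C, HLA-F, B2M and TAP1. The interferon-gamma motif TTCNNNGAA (7.7%) was found only in a second TAP1 promoter of the RefSeq table. HLA-B and HLA-C were alike over 88.5% of the aligned promoter bases, whereas HLA-F was 79.7% identical to HLA-B and 78.9% identical to HLA-C. A match describes the letters only.

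On the main chromosomes the lists held 22768 peaks (NC) and 23878 peaks (sh-ANP32B) for Kasumi-1, with median widths of 1044 and 980 bases. For MV4-11 they held 24523 and 22136 peaks, with median widths of 815 and 742 bases. Each list also held between 763 and 983 peaks on other sequences of hg38. The smallest width ranged from 275 to 357 bases by list, so short peaks were kept in some lists and not in others. Of 8 blood cell markers, 5 were covered at the promoter in each library, or 4 in the MV4-11 library with sh-ANP32B, and the granule gene MPO was at 0 throughout. The promoter of SPI1, a myeloid master regulator, was covered over 3008 to 3127 bases in every library. CD33, a myeloid surface protein, was covered in both Kasumi-1 libraries only, and LYZ, the lysozyme gene of monocytic cells, in both MV4-11 libraries only. PAX5, CD3E, GATA1, EPCAM and ALB, markers of other cell types, were at 0 throughout. At ANP32B itself, whose hairpin acts on the RNA and not on the promoter, the window held 3447 and 3432 bases in Kasumi-1 and 3433 and 2631 in MV4-11, NC before sh-ANP32B.

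Of the 9 members, 5 had no promoter peak in any library, 2 had one in every library, and 4 had one in at least 1 library. HLA-B, HLA-C, HLA-E, HLA-F and TAP1 were the 5 without. By library, the covered members numbered 3 with NC and 4 with sh-ANP32B in Kasumi-1, beside 47.7% and 45.3% of all protein-coding genes. For MV4-11 the numbers were 3 and 2, beside 35.8% and 28.6%.

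**Figure D1:**
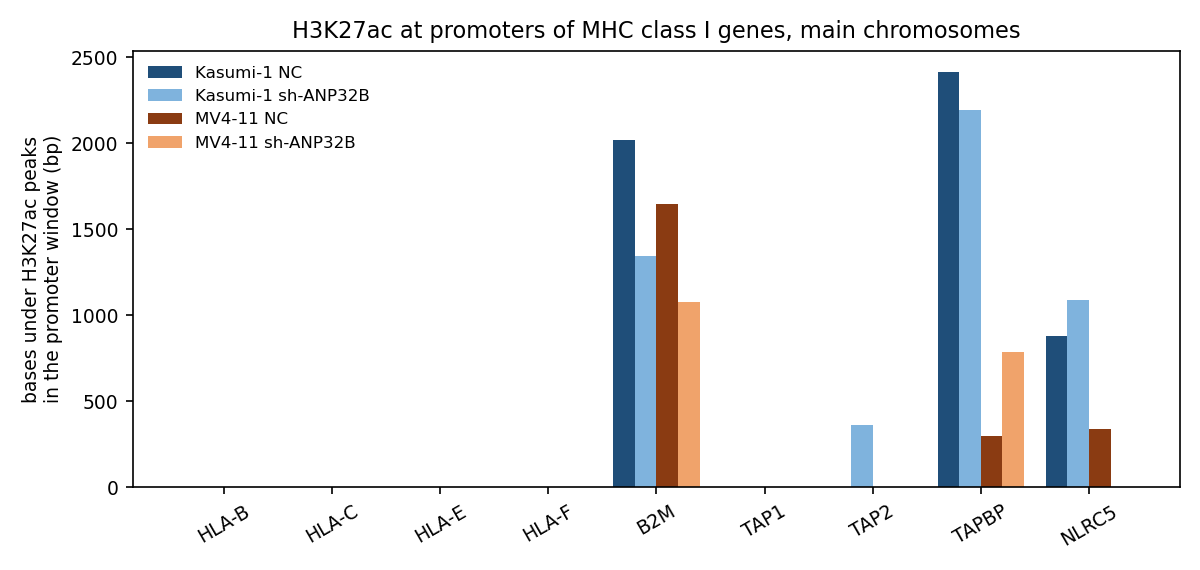
Bases under H3K27ac peaks (vertical axis, bp) in the promoter window of each member, with 1 bar for each of the 4 libraries and no error since each group had 1 library. The 4 HLA genes and TAP1 are at 0 in every library, and TAPBP runs from 301 bases in MV4-11 NC to 2418 in Kasumi-1 NC.

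The heavy chain genes were without a peak on chromosome 6. HLA-B and HLA-C, which encode classical heavy chains that show peptides to T cells, held 0 bases under peaks in all 4 libraries. HLA-E, a nonclassical heavy chain recognised by NKG2A receptors of natural killer cells, and HLA-F, another nonclassical heavy chain, were likewise at 0. The same held across their gene windows of 23382 to 35754 bases. With a flank of 20 kb, 1 peak of 376 bases entered the HLA-E window, in the Kasumi-1 sh-ANP32B list alone.

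These 4 promoter windows recur in hg38 on alternate haplotype sequences, other versions of the MHC that are listed beside chromosome 6. Alignment found 5 copies of the HLA-B window and 6 each of the HLA-C, HLA-E and HLA-F windows, 23 in all, and peaks lay on them. Of the 23 copies, 9 held a peak with NC and 7 with sh-ANP32B in Kasumi-1, and 3 did in each MV4-11 library. These copies were examined as an alternative chosen after seeing the data. Copies of a window are versions of the same locus, so they are not independent measurements, and copies that move together are not replicates.

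For HLA-B, 4 of the 5 copies were covered with NC and 3 with sh-ANP32B in Kasumi-1, and 1 in each MV4-11 library. Summed over the copies, Kasumi-1 gave 3980 bases with NC and 2671 with sh-ANP32B. MV4-11 gave 1048 bases with NC and 476 with sh-ANP32B. The highest copy in Kasumi-1 NC had a peak from -414 to 1053, over the start site and the positions of the HLA-B matches printed above. The sums were thus lower with sh-ANP32B in both lines, by less than 1.5-fold in Kasumi-1 and past it in MV4-11. Both MV4-11 sums were below both Kasumi-1 sums, and the share of all genes in this order was not computed with copies. Among single HLA-B copies in Kasumi-1, however, 3 were lower with sh-ANP32B, 1 was higher and 1 was at 0 in both.

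For HLA-C, 3 of the 6 copies held a peak in each Kasumi-1 library and 2 in each MV4-11 library. The summed bases were 4150 with NC and 2621 with sh-ANP32B in the Kasumi-1 libraries. In the MV4-11 libraries they were 858 and 1317, so that HLA-C was lower with the knockdown in Kasumi-1 (0.632 of NC) and higher in MV4-11 (1.535 of NC). All 3 covered copies moved down in Kasumi-1 and both moved up in MV4-11, though as versions of the same locus they are not replicates.

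In Kasumi-1, HLA-E had a peak on 2 of 6 copies with NC and on 1 with sh-ANP32B, with sums of 1177 and 405 bases. It had none in either MV4-11 library. HLA-F had no peak on any of its 6 copies in any library, so it stood at 0 everywhere its window was found.

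**Figure D2:**
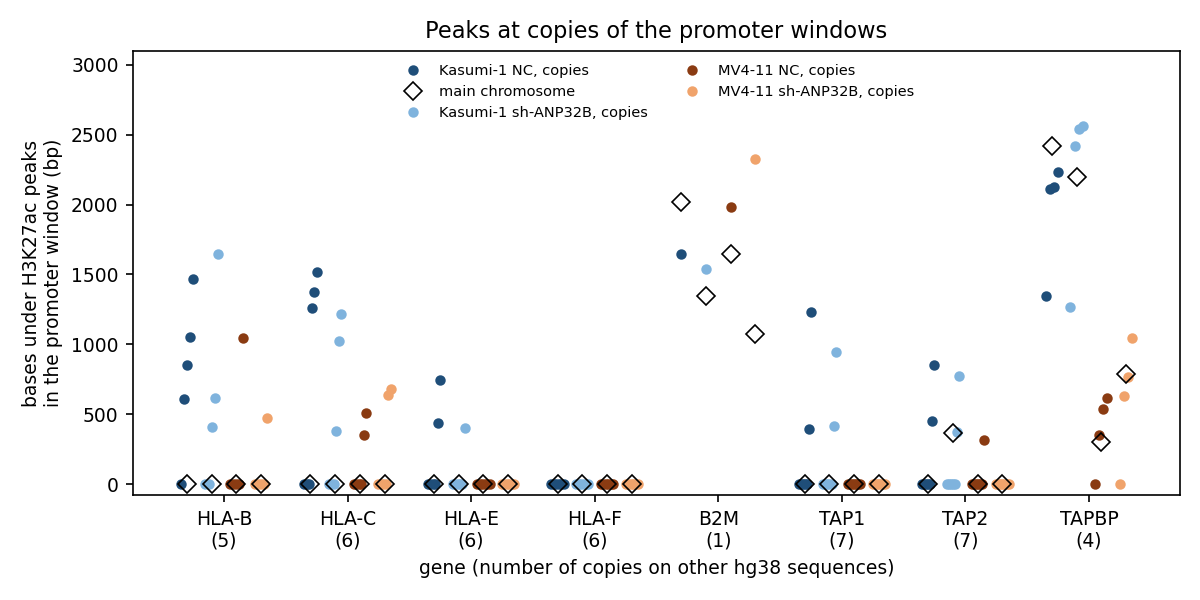
Bases under H3K27ac peaks (vertical axis, bp) in each copy of a member's promoter window on the other sequences of hg38 (filled circles, coloured by library) and on the main chromosome (open diamonds), for the 8 members with a copy. HLA-B, HLA-C, HLA-E and TAP1 have covered copies with the main chromosome at 0, HLA-F is at 0 throughout, and the B2M copy of MV4-11 sh-ANP32B reaches 2323 bases.

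How much of a window is also written elsewhere differed among members. Of the 50-base words in the promoter window, 80.4% were found on the other sequences for HLA-B, 89.2% for HLA-C, 90.1% for HLA-F and 100% for HLA-E. The share was also 100% for TAP1, TAP2 and TAPBP, 94.1% for B2M and 0.9% for NLRC5. Of these members, TAPBP and B2M had a peak on the main chromosome in every library. Across the 183 genes of the MHC (chromosome 6, 28510126 to 33480549), 31.1% (NC) and 32.2% (sh-ANP32B) were covered at the promoter in Kasumi-1, beside 47.4% and 45.3% of the 868 genes on the rest of chromosome 6. In MV4-11 the MHC genes gave 17.5% and 14.2%, beside 37.2% and 29.3%. Counted per Mb, peaks were not fewer in the MHC. Kasumi-1 had 12.3 (NC) and 12.7 (sh-ANP32B) per Mb there, and 6.2 and 6.5 on the rest of chromosome 6. MV4-11 had 7.4 and 6.8 per Mb in the MHC, and 6.8 and 6.3 on the rest. The part of the copied sequence in the missing HLA and TAP1 peaks was not tested.

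B2M, which encodes the light chain shared by all class I molecules, was covered at the promoter in every library. The Kasumi-1 window held 2019 bases with NC and 1347 with sh-ANP32B. The MV4-11 window held 1647 and 1075 bases. Within each line the sh-ANP32B value was below the NC value. Among genes covered in both libraries of a line, 47.2% had fewer bases with sh-ANP32B in Kasumi-1 and 75.6% in MV4-11. The change was -0.58 on the log2 scale in Kasumi-1 (1.499-fold lower, just short of the 1.5-fold limit used for a call) and -0.62 in MV4-11 (1.532-fold lower, just past it). Among genes with a promoter peak, B2M stood at the 69.4 percentile with NC and at 42.7 with sh-ANP32B in Kasumi-1, and at 73.8 and 58.3 in MV4-11.

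The edges of the B2M peaks on chromosome 15 show where the bases were lost there. In Kasumi-1 the NC peak ran from -546 to 1472 and the sh-ANP32B peak from -546 to 800, with the same upstream edge and a shorter downstream side within intron 1. Both Kasumi-1 peaks covered the overlapping ISRE-type matches printed above. In MV4-11 NC there was a peak of 1039 bases from -82 to 956 and a separate one of 608 bases from -1387 to -780, centred in intron 2 of PATL2, the gene that starts 194 bases away on the other strand. In MV4-11 sh-ANP32B the peak over the start was 1075 bases wide, from -61 to 1013, and the upstream peak was gone from chromosome 15. The main B2M peak itself was therefore no narrower in MV4-11 sh-ANP32B, and the upstream peak made the difference. In neither MV4-11 library did the start peak on chromosome 15 reach the ISRE-type matches at -144 to -129. The promoter values of PATL2 are the same bases and cannot be told apart from those of B2M.

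B2M has 1 copy, on an alternate sequence of chromosome 15 with 99.84% identity. In Kasumi-1 the copy held 1648 bases with NC and 1537 with sh-ANP32B, and in MV4-11 1981 and 2323. With sh-ANP32B it was thus lower in Kasumi-1, as on chromosome 15, and higher in MV4-11, where chromosome 15 was lower. Peaks on the copy reached from -1387 to 1543 in MV4-11 NC and from -1358 to 1312 in MV4-11 sh-ANP32B. The upstream stretch thus still held a peak with sh-ANP32B on the copy. Chromosome and copy together gave 3667, 2884, 3628 and 3398 bases, and with them B2M passed the 1.5-fold limit in neither line.

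**Figure D3:**
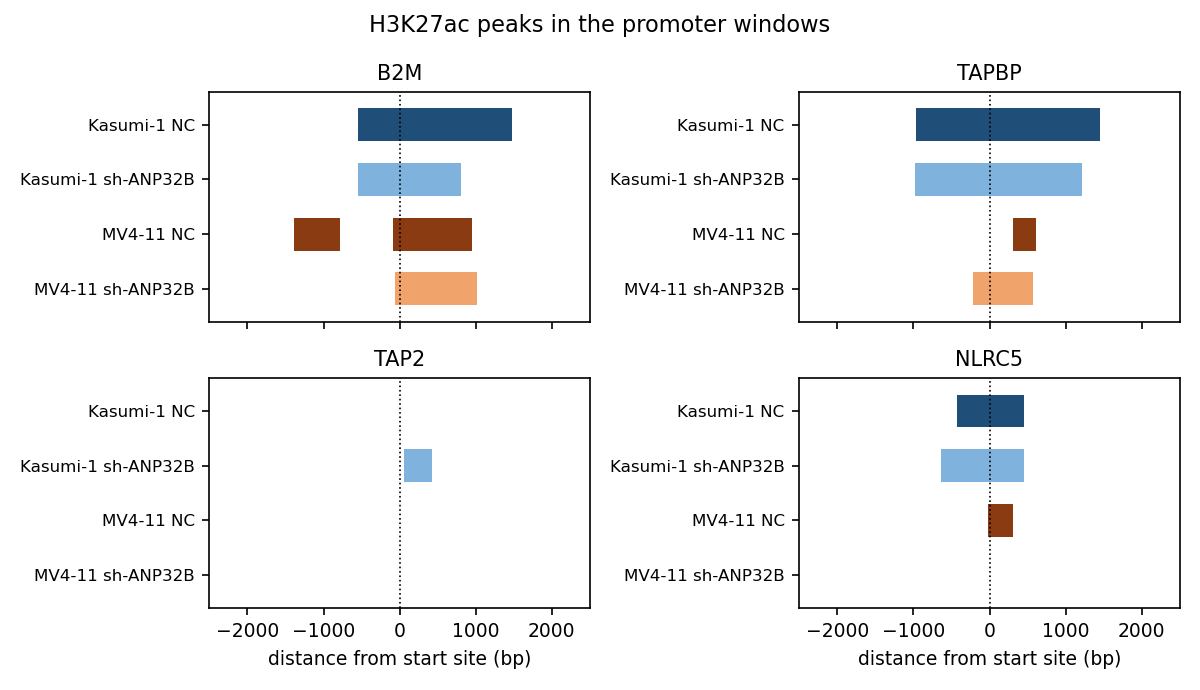
Position of H3K27ac peaks in the promoter windows of B2M, TAPBP, TAP2 and NLRC5 (horizontal axis, distance from the start site in bp, negative upstream; 1 row per library; dotted line, start site). On the main chromosomes the upstream B2M peak is present in MV4-11 NC alone, TAPBP peaks are short in MV4-11, and NLRC5 has no peak in MV4-11 sh-ANP32B.

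Downstream of B2M, peaks lay in all 4 libraries between B2M and TRIM69, in the flank of the gene window. In every library 1 peak began between 14055 and 14149 bases after the start site and another between 16855 and 16971. The gene window of 27494 bases held 3188 bases in 3 peaks (NC) and 3010 in 4 peaks (sh-ANP32B) for Kasumi-1. For MV4-11 it held 4687 bases in 6 peaks and 3776 in 5 peaks. In Kasumi-1 the part of the window outside the promoter had 494 more bases in sh-ANP32B, against fewer at the promoter. In MV4-11 sh-ANP32B a peak of 357 bases centred in exon 4 of B2M appeared that no other library had.

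**Figure D4:**
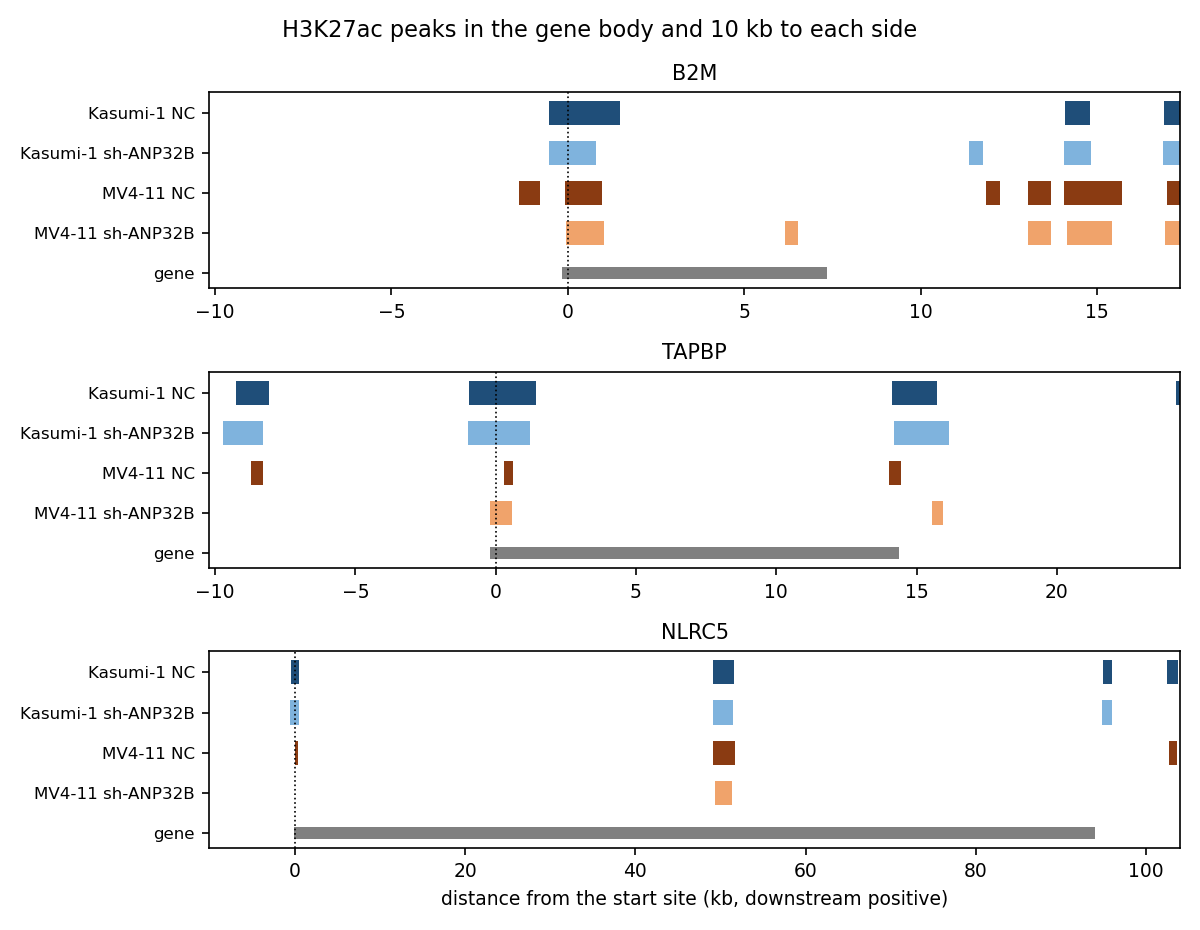
H3K27ac peaks over the gene windows of B2M, TAPBP and NLRC5 (horizontal axis, distance from the start site in kb; coloured bars, peaks, 1 row per library; grey bar, gene body). Peaks downstream of B2M and the intragenic NLRC5 peak are present in all 4 libraries, and NLRC5 has 4, 3, 3 and 1 peaks from the top row down.

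TAP1 and TAP2 encode the subunits of the peptide transporter. TAP1 shares its promoter with PSMB9, an immunoproteasome subunit that starts 488 bases away on the other strand, and both were at 0 on chromosome 6 in every library. TAP2 was at 0 in 3 libraries and had a peak of 363 bases in Kasumi-1 sh-ANP32B, from 61 to 423, in intron 1. This peak was near the smallest width of 354 bases in that list and stood at the 1.2 percentile of genes with a promoter peak. The ISRE-type matches of TAP2 lay outside it. The start of ENSG00000250264, 83 bases from that of TAP2, has the same values and cannot be told apart from it.

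On the alternate haplotype sequences, the TAP1 window had 7 copies, of which 2 held a peak in each Kasumi-1 library and none in either MV4-11 library. The summed TAP1 bases were 1629 with NC and 1362 with sh-ANP32B. The 7 copies of TAP2 gave 1301 and 1151 bases in Kasumi-1, and 313 and 0 in MV4-11. With copies and chromosome together TAP2 had 1301 bases with NC and 1514 with sh-ANP32B in Kasumi-1, and was no longer past the limit.

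The gene windows of TAP1 and TAP2 overlap, and their values were the same, 1493 (NC) and 2007 (sh-ANP32B) bases for Kasumi-1 and 0 and 371 bases for MV4-11. Apart from the TAP2 peak, these bases came from the start of PSMB8, another immunoproteasome subunit that lies between TAP1 and TAP2. The PSMB8 peak was 1493 and 1644 bases wide in Kasumi-1, and 371 bases wide in the MV4-11 library with sh-ANP32B. In MV4-11, copies of the PSMB8 window gave 1674 bases with NC and 1381 with sh-ANP32B, so that the start of PSMB8 was not without peaks in MV4-11 NC.

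TAPBP encodes tapasin, which bridges TAP and the empty class I molecule and edits the peptides bound. For Kasumi-1 the TAPBP promoter window held 2418 bases with NC and 2195 with sh-ANP32B. For MV4-11 it held 301 and 788 bases. The window of the neighbour ZBTB22 overlaps that of TAPBP and was at 0. In NC cells TAPBP was 8.033-fold lower in MV4-11 than in Kasumi-1, and 61.9% of genes tested were called lower between these libraries. The MV4-11 NC value was 1 peak near the smallest width of 289 bases in that list. It stood at the 2.1 percentile of genes with a promoter peak. Summed with the copies described below, TAPBP in MV4-11 NC had 0.177 of the Kasumi-1 NC bases. The knockdown change was -0.14 on the log2 scale in Kasumi-1, within the limit, and 1.39 in MV4-11, 2.618-fold higher. With 1 common minimum width the MV4-11 NC peak fell away, and the MV4-11 difference was 788 bases. On chromosome 6 the MV4-11 NC peak lay within the gene, from 304 to 604, and missed the start. The MV4-11 sh-ANP32B peak there ran from -211 to 576 and covered the ISRE-type and kappaB matches printed above. The Kasumi-1 peaks reached from -967 to 1450 with NC and from -974 to 1220 with sh-ANP32B.

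The copies of TAPBP, 4 in number, followed chromosome 6 in level. Each was covered in both Kasumi-1 libraries and 3 of 4 in each MV4-11 library. In MV4-11 NC, however, a copy with 100% identity had a peak from -156 to 383, over the start and the ISRE-type and kappaB matches. Another copy had a peak from -39 to 576, over the start and the ISRE-type matches, and a further copy had one from 25 to 378, past the start. With chromosome 6 included, the sums were 10243 and 10987 bases in Kasumi-1 and 1811 and 3230 in MV4-11, NC before sh-ANP32B. In MV4-11 the TAPBP sum was higher with the knockdown, by 1.784 times, with 3 copies higher and 1 lower, which are not independent of chromosome 6. The TAPBP peak of 301 bases in MV4-11 NC was shorter than the smallest width of either Kasumi-1 list, and no peak that short was in those lists. The gene window held 5350 and 5569 bases in Kasumi-1 and 1133 and 1167 in MV4-11; outside the promoter its peaks lay at the starts of the neighbours RGL2, WDR46 and DAXX or near them, and in MV4-11 the DAXX peak of 415 bases was seen in NC only.

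NLRC5, the transactivator that binds class I promoters through the SXY module, was the member without a copy. In Kasumi-1 its promoter window held 881 bases with NC and 1091 with sh-ANP32B. In MV4-11 the values were 338 and 0. In Kasumi-1 the peak grew upstream, from -423 to -633, with its downstream edge at 457 in both, a change of 0.31 on the log2 scale. In MV4-11 the peak over the start, from -25 to 312 in NC, was gone. That peak of 338 bases was itself narrower than the smallest width in either Kasumi-1 list and stood at the 4.8 percentile of genes with a promoter peak, and with 1 common minimum width NLRC5 was at 0 in both MV4-11 libraries.

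Within NLRC5, a wide peak about intron 16 was present in every library. It measured 2388 (NC) and 2299 (sh-ANP32B) bases in Kasumi-1, and 2498 and 1924 bases in MV4-11, and was the widest peak of the gene window in all 4. A peak after the end of NLRC5 was found in both Kasumi-1 libraries, with 1092 and 1181 bases. The peak at the start of the next gene, CPNE2, was found in both NC libraries, with 1223 bases in Kasumi-1 and 895 in MV4-11, and in neither sh-ANP32B library. In all, the NLRC5 gene window of 114047 bases held 5584 and 4571 bases for Kasumi-1, NC before sh-ANP32B. It held 3731 and 1924 for MV4-11, 1.939-fold lower and past the limit.

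The calls at the members' promoters are set here against those over all genes. In Kasumi-1, of 4 members with bases in either library, 0 were lower and 1 was higher (TAP2) in sh-ANP32B, where 14.6% of 9705 genes were lower and 4.86% higher. In MV4-11, 2 of 3 were lower (B2M, NLRC5) and 1 was higher (TAPBP), where 45.0% of 7469 genes were lower and 7.28% higher. A fall in MV4-11 was thus common among genes, and a rise such as that of TAPBP was not. Over genes covered in both libraries of a line, the median change was 0.0 on the log2 scale in Kasumi-1 and -0.27 in MV4-11. The changes of B2M were below these medians in both lines. The summed bases of the members were 0.939 of NC in Kasumi-1 and 0.815 in MV4-11, beside 0.96 and 0.721 for all genes. Peak widths and numbers differed between the MV4-11 lists as a whole, and their part in the falls was not tested.

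In the gene windows, with 5 members covered, 0 were lower and 0 higher in Kasumi-1, where 9.93% and 5.94% of all genes were. In MV4-11, 1 of 5 was lower (NLRC5) against 40.5% of genes, and 2 of 5 were higher (TAP1 and TAP2, through the single PSMB8 peak) against 8.3%. The NLRC5 window took in the CPNE2 peak of the NC library, and with a flank of 5 kb 0 members were lower. Between the NC libraries, 2 of 3 members were lower at the promoter in MV4-11 (TAPBP, NLRC5) and 0 higher, against 61.9% and 5.84% of genes. In the gene windows 3 of 5 were lower (TAP1, TAP2, TAPBP) and 0 higher, against 51.0% and 14.7%. The TAP1 and TAP2 calls came from the same PSMB8 peak of the Kasumi-1 NC list.

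A further 25 genes of the class I pathway, mostly outside the MHC, were measured in the same way. A promoter peak was found for 24 in each Kasumi-1 library, beside 47.7% (NC) and 45.3% (sh-ANP32B) of all genes. In MV4-11 it was found for 19 (NC) and 18 (sh-ANP32B), beside 35.8% and 28.6%. They were thus more often covered than the members, and the cause was not tested. In Kasumi-1, 1 of the 25 was at 0 in both libraries, 2 were lower in sh-ANP32B and 1 was higher, where 14.6% of all genes tested were lower and 4.86% higher. In MV4-11, 4 were at 0 in both libraries, 4 were lower and 3 higher, where 45.0% of all genes tested were lower and 7.28% higher.

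The genes called higher in MV4-11 sh-ANP32B all encode parts of the immunoproteasome or its activator. PSMB8 went from 0 to 371 bases, PSMB10 from 928 to 1668 and PSME1 from 0 to 424, while PSMB9 and PSME2 were at 0 in both. With the copies, PSMB8 gave 1674 and 1752 bases and was within the limit. In Kasumi-1 none of the 5 genes of this list passed the limit.

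Of 6 genes for folding, editing and trimming, only PDIA3, the oxidoreductase partner of tapasin, passed the limit, from 1273 to 533 bases in MV4-11. CALR and CANX, the lectin chaperones of the heavy chain, went from 2254 to 1896 and from 2763 to 2159 there, and the trimming enzyme ERAP1 from 1264 to 930. In Kasumi-1 CALR had 4003 bases in NC and 4269 in sh-ANP32B, and ERAP1 1546 and 1544.

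Among 14 regulators, 2 were lower in Kasumi-1 and 3 in MV4-11, beside 14.6% and 45.0% of all genes tested. NFYB and RFXAP were lower in both lines, and the share of all genes lower in both was not computed. The other subunits of the same complexes, NFYA and NFYC of NF-Y and RFX5 and RFXANK of RFX, passed the limit with sh-ANP32B in neither line. NFYB, a subunit of NF-Y, had 1826 (NC) and 960 (sh-ANP32B) bases in Kasumi-1, and 911 and 0 in MV4-11. RFXAP, a subunit of RFX, went from 703 to 460 and from 582 to 0. IRF1, an interferon-induced activator of class I genes, went from 610 to 0 in MV4-11 and had 2433 and 2861 bases in Kasumi-1. IRF9, the DNA-binding part of the interferon-activated complex ISGF3, was past the limit in Kasumi-1, with 793 and 1596 bases, and had 953 and 721 in MV4-11. Between the NC libraries, 13 of the 25 were lower in MV4-11, beside 61.9% of all genes tested, RELA and STAT2 among them at 0 in both MV4-11 libraries. The other 11 were PSMB8, PSMB10, PSME1, PSME2, CALR, TAPBPL, RFX5, RFXANK, NFYB, IRF1 and IRF2.

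**Figure D5:**
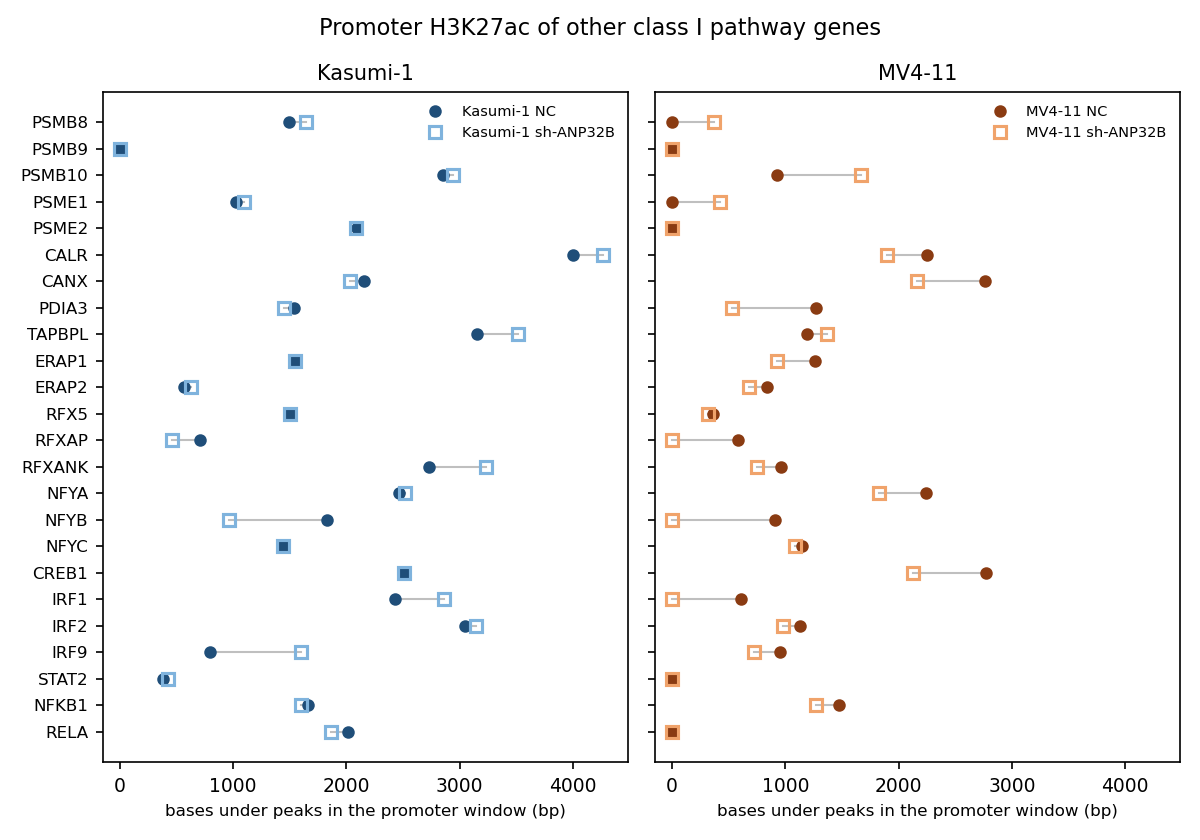
Bases under H3K27ac peaks in the promoter window (horizontal axis, bp) of 24 other class I pathway genes in Kasumi-1 (left) and MV4-11 (right), with filled circles for NC, open squares for sh-ANP32B and a grey line between them. NFYB and RFXAP have lower values with sh-ANP32B in both panels, and PSMB8, PSMB10 and PSME1 have higher values in MV4-11.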

How the data were processed

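H3K27ac CUT&Tag was performed in Kasumi-1 and MV4-11 cells carrying NC or sh-ANP32B. The submitters' processing notes name hg38, Bowtie2 2.4.4 and MACS3 3.0, whereas the study's methods describe Bowtie2, duplicate removal, merging of replicates and peak calling with MACS2; whether IgG served as control is not given in the sources used here. The deposited lists hold peak positions and widths in bases, made by the authors, in the unit of other values (no signal). Depth is unknown, so no counting interval can be given.

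Bases under peaks were computed with Python 3.11.15 and pandas 2.3.3 in windows from the GENCODE annotation of hg38. A gene was called lower or higher past 1.5-fold, or where 1 library was at 0 and the other was not. With 1 library per group no test was made. Named are all 9 members, the genes of the 3 pathway lists that were called, and genes whose promoter window overlaps that of a member. CANX, ERAP1, NFYA, NFYC and the neighbours at other peaks were added after their values were seen. Members and lists were chosen with earlier results of these data known. The calculation was tested on simulated data. Copies of promoter windows were found by alignment with minimap2 2.31 (at least 70% of the window aligned to 1 of 430 other sequences), and exact words were counted along each window. Motifs were searched on both strands of the RefSeq promoters. Alternatives were other windows, flanks, fold limits, 1 shared minimum for width and joining gap (357 bases), and the 10000 widest peaks. The values of 1 pathway gene and 1 marker are not reported here.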

Additional observations from a re-analysis of the deposited data

Results flagged for a closer look

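Several members went in opposite directions in the 2 lines, and the difference between lines was not tested, since each line had 1 library per group. TAPBP promoter bases changed by -223 in Kasumi-1 and by 487 in MV4-11 (sh-ANP32B minus NC), though in a window of 1000 bases to each side the Kasumi-1 change was 7. NLRC5 changed by 210 in Kasumi-1 and by -338 in MV4-11. Summed with the copies on other sequences, HLA-C changed by -1529 in Kasumi-1 and by 459 in MV4-11, and TAP2 by 213 and -313.

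Peaks on the other sequences of hg38 lie outside the main measurement. Counting each copy in each of the 4 libraries, a peak was found in 9 of 20 cases for HLA-B, 10 of 24 for HLA-C, 3 of 24 for HLA-E, 4 of 4 for B2M, 4 of 28 for TAP1, 5 of 28 for TAP2 and 14 of 16 for TAPBP. HLA-F had 0 of 24. No control list was used for comparison.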

How the results depend on the processing

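No paired analysis was possible because no result comes from a test, with 1 library per group. The depth of the libraries is unknown and the lists hold no peak heights, so a missing peak means only that none was called. The cause of the changes below was not tested, apart from fewer peaks or a shorter window where the setting itself has them.

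Members lower at the promoter in Kasumi-1 numbered 1 at the laxer of the other fold limits tried (B2M). With the 10000 widest peaks, members higher in Kasumi-1 numbered 0, in MV4-11 0 were lower and 0 higher, and members with a peak were 2 for Kasumi-1 with sh-ANP32B and 1 for either MV4-11 library. Members lower in MV4-11 numbered 1 with a window of 1000 bases to each side or of 2500 bases in all, with a common minimum width and joining gap, and at 2-fold; with the common width 1 member had a peak in MV4-11 NC. With these widest peaks B2M changed by 36 bases at the promoter and 77 in the gene window in MV4-11. TAPBP changed by 7 at the promoter in Kasumi-1 with 1000 bases. The summed bases over NC were 1.086 in Kasumi-1 with 1000 bases, 1.02 with 2500 in all, and in MV4-11 1.131 with the common width and 1.035 with the widest peaks.

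Of the other pathway genes in Kasumi-1, 0 were lower at 2-fold, and 0 were higher with 1000 bases and 2 with the widest peaks. In MV4-11, 9 were lower at the laxer fold limit and 1 was higher with the widest peaks.

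In the gene windows of Kasumi-1, 2 members were higher at the laxer fold limit, 1 with a flank of 5 kb and 1 with 20 kb. In MV4-11, 0 were lower with the widest peaks, at 2-fold or with 5 kb, 2 were lower without the promoter window, and 0 were higher with the widest peaks. Between the NC libraries 1 was higher at the laxer fold limit and 1 without the promoter window. Kasumi-1 changes reversed for B2M (494, without the promoter window), TAPBP (-478, with 20 kb) and NLRC5 (210, with 5 kb), and in MV4-11 for TAPBP (-453, without the promoter window).

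Summing chromosome and copies, chosen after seeing the data, gave 2 members lower (HLA-C, HLA-E) and 0 higher in Kasumi-1, 3 lower (HLA-B, TAP2, NLRC5) and 2 higher (HLA-C, TAPBP) in MV4-11, and 7 lower between the NC libraries; 8, 8, 6 and 4 members then had a peak. The share over all genes was not computed with copies, and on the main chromosomes alone 61.9% of genes were lower between the NC libraries. All other counts of calls and of covered members stayed within 1.5 times the value given in the report.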
